A study of Trichoderma reesei with 6 samples.

Results

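The genes described are the 3 genes of Trichoderma reesei that the study's supplementary gene list annotates as ammonium transporters, out of 9126 features on the array. They are TRIRE2_43671, annotated as the ammonium permease MEA1, and TRIRE2_82204 and TRIRE2_82095, both annotated as high affinity ammonium transporters. They were picked by identifier from a list of genes that the study had selected as changed on lactose against both glucose and glycerol. Their lower signal on lactose is therefore what chose them, and it is given below as a description without a test. Mycelia of strain QM9414, an early cellulase-producing mutant, were grown in shake flasks on lactose, glucose or glycerol, each at 10 g/l, and total RNA was hybridised to 1 single-colour NimbleGen array per sample, with 2 arrays per carbon source. The study's shake flask methods start with pregrowth on glycerol, followed by washing and transfer to the carbon source. Its transcriptome methods do not say whether the array cultures were treated in this way. By the sample labels, lactose cultures were harvested after 28 h and the other cultures after 24 h, whereas the methods name 24 h throughout. If the labels hold, carbon source and harvest time cannot be told apart in the lactose comparisons. The study places the harvest in the initial growth phase, within 1 range of carbon source consumed, and describes growth on lactose as slower. Growth rate and carbon source therefore cannot be told apart either. All groups share the strain and the genotype, and the labels mention both duplicate flasks and pooling of mycelium. It is therefore unclear how much of the spread within a group is biological, and p-values measure no more than that spread.

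Ammonium transporters of the Mep/Amt family are membrane proteins that conduct ammonium across the plasma membrane. Inside the cell ammonium is fixed into glutamate and glutamine by glutamate dehydrogenase, glutamine synthetase and glutamate synthase. In Aspergillus nidulans and Saccharomyces cerevisiae, transcription of high affinity ammonium transporter genes is known to be repressed when ammonium or glutamine is plentiful, and to need GATA factors such as AreA of A. nidulans. Nitrogen sources other than ammonium enter fungal cells through their own permeases and are broken down by amidases, deaminases and related enzymes. The minimal medium that the study used for growth tests contains ammonium sulphate. The labels describe the medium of the array cultures by a citation and name only its carbon source.

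Values are log2 signals, summarised per gene by the authors with RMA, and a difference of 1 is a 2-fold change. Array medians were 10.80 to 10.85, and the 2 arrays of a group correlated across genes with r = 0.996 to 0.998 (genes are not independent replicates). No detection calls were given, and 10% of all signals lay under 4.66. As a check of the labels, the cellobiohydrolase gene cel7a (TRIRE2_123989), which encodes the main secreted cellulase and is known to be induced by lactose, had signals of 14.23 and 14.22 on lactose, 6.12 and 6.45 on glucose and 7.64 and 7.78 on glycerol. The study's qPCR reference gene tef1 (TRIRE2_123902) had 13.66 and 13.64 on lactose, 13.90 and 13.57 on glucose and 13.62 and 13.38 on glycerol. The glucose arrays of tef1 overlapped with those of both other groups, its lactose arrays lay above its glycerol arrays, and the limma adjusted p was 0.662 for lactose minus glucose and 0.405 for lactose minus glycerol.

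MEA1 was the gene with the largest difference. Its log2 signals were 8.78 and 8.53 on lactose, 13.14 and 13.20 on glucose and 12.70 and 12.77 on glycerol. Both lactose arrays were far below the other 4 arrays, which lay within a narrow band, and no groups overlapped. The difference from glucose was -4.52 ± 0.13 (SE of the fit, n = 2 arrays each), a 22.9-fold lower signal, so that lactose cultures had 4.37% of the glucose signal. The difference from glycerol was -4.08 ± 0.13, or 16.9-fold, and 5.91% of the glycerol signal was found on lactose. Over the 4 pairs of single arrays, the fold ranged from 20.6 to 25.5 against glucose and from 15.1 to 18.9 against glycerol. Among the falls of all features on lactose, MEA1 ranked 92 against glucose and 76 against glycerol. In RNA from whole mycelium, fewer cells that carry a transcript and less transcript per cell cannot be told apart.

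TRIRE2_82204 was also lowest on lactose, but it differed more between the other carbon sources. Its log2 signals were 7.85 and 8.09 on lactose, 11.72 and 11.92 on glucose and 10.13 and 10.15 on glycerol. The 3 groups formed separate steps, with glycerol between lactose and glucose. Signals on lactose were 14.4-fold lower than on glucose (log2 difference -3.85 ± 0.13) and 4.52-fold lower than on glycerol (-2.18 ± 0.13). Single array pairs gave 12.4- to 16.8-fold against glucose and 4.13- to 4.94-fold against glycerol. The share of the signal that remained on lactose was 6.94% of that on glucose and 22.1% of that on glycerol.

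Of the 3 genes, TRIRE2_82095 had the smallest differences between lactose and the other carbon sources, and the widest spread between arrays on glucose and on glycerol. Its log2 signals were 5.18 and 5.32 on lactose, 7.37 and 7.86 on glucose and 7.14 and 6.66 on glycerol. The lactose arrays lay below all others, and the lower glucose array was 0.23 above the higher glycerol array, less than the 0.49 between both glucose arrays or the 0.48 between both glycerol arrays. Signals on lactose were 5.16-fold lower than on glucose (log2 difference -2.37 ± 0.20) and 3.13-fold lower than on glycerol (-1.65 ± 0.20), with single array pairs from 4.15 to 6.40 and from 2.53 to 3.88. On lactose this gene was close to the low end of the arrays, with 11.7% of all signals below its mean, where folds are imprecise. On glucose, 20.3% of all signals lay below its mean, compared with 67.3% for TRIRE2_82204 and 90.3% for MEA1, positions that describe detection on the array and not the relative abundance of the transcripts.

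**Figure D1:**
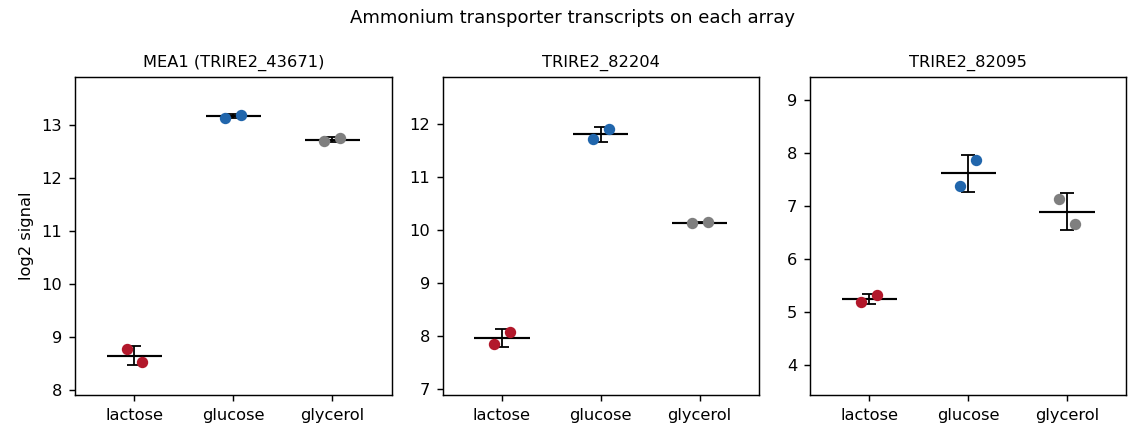
Log2 signal of the 3 ammonium transporter genes on each of the 6 arrays (points), with the mean (horizontal line) and SD (bars, n = 2) of lactose, glucose and glycerol cultures. All panels span the same log2 range at different levels, the lactose arrays are lowest in each, and glycerol lies between lactose and glucose, closest to glucose for MEA1.

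All 3 genes were over 2-fold lower on lactose in both comparisons at a Benjamini-Hochberg adjusted p under 0.05 in limma, a count that the choice of the genes fixed. Among all features, 13.9% were lower by these criteria than on glucose and 12.5% than on glycerol, and 7.28% were lower than on both. By the adjusted p alone, 33.9% were lower than on glucose and 31.5% than on glycerol. The median differences of the 3 genes, those of TRIRE2_82204, were -3.85 against glucose and -2.18 against glycerol, beside -0.06 and -0.05 over all features. Among the 664 genes lower than on both, the medians were -1.93 and -1.78. Both comparisons use the same lactose arrays. MEA1 and TRIRE2_82204 lay beyond these medians in both comparisons, and TRIRE2_82095 beyond the median for glucose only.

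**Figure D2:**
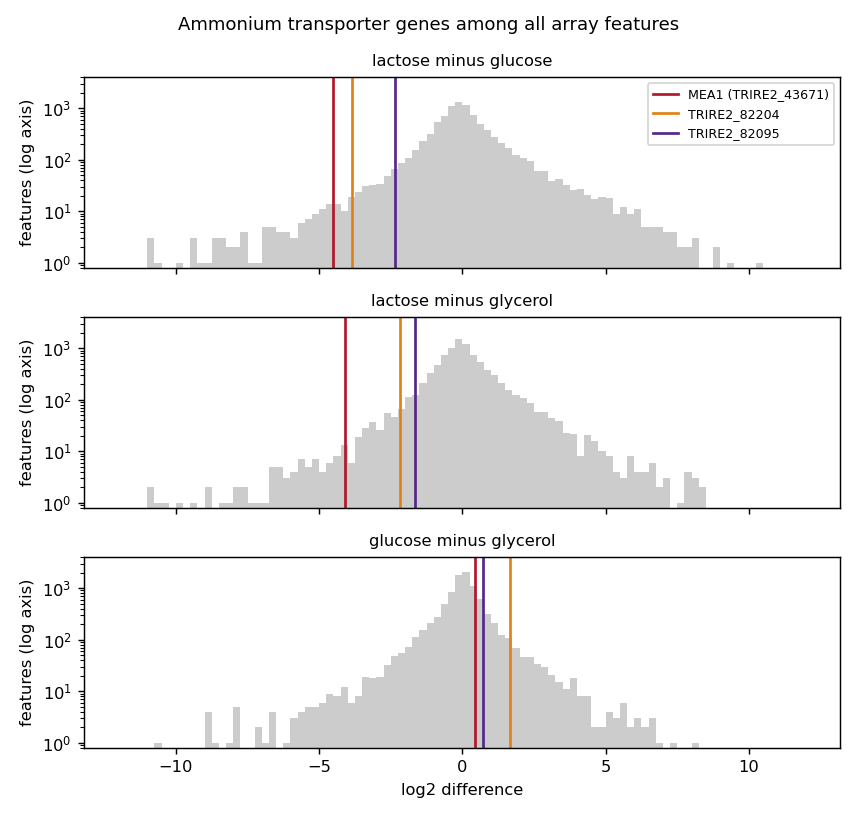
Histograms of the log2 differences of all 9126 features (log count axis) for lactose minus glucose, lactose minus glycerol and glucose minus glycerol, with the 3 ammonium transporter genes as vertical lines. MEA1 lies in the lower tail at -4.52 and -4.08 in both lactose panels, while in the bottom panel TRIRE2_82204 lies farthest out, at 1.67.

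The comparison of glucose with glycerol was not a criterion for the choice of these genes, although the same arrays were used in it, and both groups have the same time in the labels. TRIRE2_82204 was 3.19-fold higher on glucose than on glycerol (log2 difference 1.67 ± 0.13, limma adjusted p = 1.85e-05). This call was made for 8.49% of all features, while 9.07% were lower on glucose. Among the 664 genes lower on lactose than on both other carbon sources, it was made for 116 (17.5%). MEA1 was 1.35-fold higher (0.44 ± 0.13, adjusted p = 0.0231) and TRIRE2_82095 1.65-fold higher (0.72 ± 0.20, adjusted p = 0.0214). By the adjusted p alone all 3 genes were thus higher on glucose, and 22.4% of all features were. Only TRIRE2_82204 was over 2-fold and kept an adjusted p under 0.05 without any 1 array (0.000261 to 0.000694). MEA1 and TRIRE2_82095 were under 2-fold, so neither was a call. MEA1 did not keep an adjusted p under 0.05 without glucose replicate 1 (log2 difference 0.46), glucose replicate 2 (0.41) or glycerol replicate 1 (0.41). Nor did TRIRE2_82095 without glucose replicate 2 (log2 difference 0.48), glycerol replicate 2 (0.48) or either lactose array (0.72 each). An exact permutation test of 2 arrays against 2 cannot give a two-sided p below 0.333.

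The 6 arrays of each gene followed the rising order lactose, glycerol, glucose without overlap. This order was found for 1226 of all features (13.4%). Of the 664 genes lower than on both other carbon sources, 302 (45.5%) had both glucose arrays above both glycerol arrays, and 224 (33.7%) were higher on glucose by the adjusted p alone. The step from glycerol to glucose made up 9.66% of the log2 distance between lactose and glucose for MEA1, 43.5% for TRIRE2_82204 and 30.4% for TRIRE2_82095. The log2 difference of glucose minus glycerol for MEA1 minus that for TRIRE2_82204 was -1.24, with single array pairs from -1.33 to -1.14. For MEA1 minus TRIRE2_82095 it was -0.28, and the array pairs spanned 0 (-0.78 to 0.21). These differences between genes were not tested.

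The features closest to each gene in pattern were ranked by the root mean square difference of their 6 centred log2 values. They were chosen by the same values, so their differences are a description. For MEA1 they were the unknown proteins TRIRE2_105157 (0.16) and TRIRE2_81586 (0.22), a ferric reductase (TRIRE2_111750, 0.22), a short chain-type dehydrogenase/reductase (TRIRE2_60518, 0.25) and a homeodomain-like protein (TRIRE2_58853, 0.29). On lactose, TRIRE2_105157 (3.43 and 3.51) and TRIRE2_60518 (3.71 and 3.44) were at the low end of the arrays. The ferric reductase, whose class of enzymes reduces iron for uptake, had 10.40 and 10.41 on lactose, 14.88 and 14.99 on glucose and 14.86 and 15.01 on glycerol. Its glucose and glycerol arrays overlapped, unlike those of MEA1. For TRIRE2_82204 the closest were a cytochrome P450 (TRIRE2_78223, 0.11), a phosphoadenosine phosphosulphate reductase of sulphate assimilation (TRIRE2_65410, 0.16), a zinc-containing alcohol dehydrogenase (TRIRE2_30759, 0.18) and the unknown proteins TRIRE2_106626 (0.21) and TRIRE2_109934 (0.22). The reductase gene had log2 signals of 10.55 and 10.35 on lactose, 14.12 and 14.16 on glucose and 12.44 and 12.42 on glycerol. Its groups lay in the same order as those of TRIRE2_82204, also without overlap. For TRIRE2_82095 they were a glutathione peroxidase (TRIRE2_47136, 0.15), the unknown proteins TRIRE2_80115 (0.16) and TRIRE2_69171 (0.18), a para-aminobenzoate synthase (TRIRE2_60346, 0.18) and a glycine cleavage T protein (TRIRE2_57357, 0.18). Each ammonium transporter gene had other features closer to it than the other ammonium transporter genes. In likeness to MEA1, TRIRE2_82204 ranked 80 (root mean square difference 0.80) and TRIRE2_82095 ranked 213 (1.11). In likeness to TRIRE2_82204, TRIRE2_82095 ranked 130 (0.64, the smallest difference of the 3 pairs) and MEA1 ranked 249. Seen from TRIRE2_82095, TRIRE2_82204 ranked 827 and MEA1 ranked 5566. The measure depends on the size of the differences, so a distant rank does not mean another order of the groups. All 3 genes had the same rising order of lactose, glycerol and glucose. A feature with little change can rank closer to TRIRE2_82095 than MEA1 does.

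**Figure D3:**
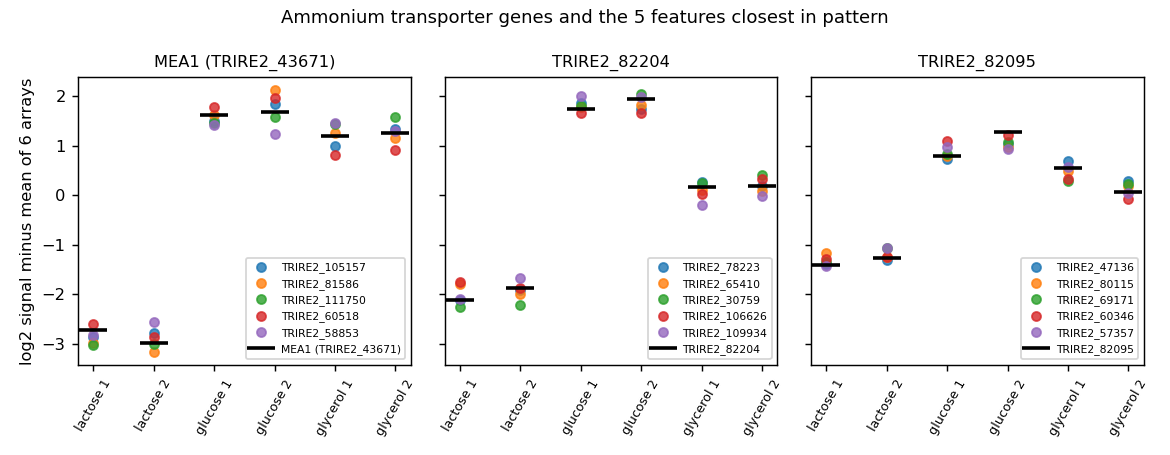
Log2 signal minus the mean of the 6 arrays for each ammonium transporter gene (black bars) and the 5 features with the smallest root mean square difference from it (coloured points), by array. The closest features lie within 0.29 of MEA1, 0.22 of TRIRE2_82204 and 0.18 of TRIRE2_82095 by that measure.

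The genome annotation of strain QM6a places the 3 genes on 3 different sequences, with gene models of 2003 bases for MEA1, 1961 bases for TRIRE2_82095 and 1213 bases for TRIRE2_82204. TRIRE2_82204 is gene 62 of 62 on its sequence and has annotated neighbours on 1 side only. Of the 10 nearest genes, up to 2 on each side, limma called 3 higher and 1 lower than on glucose, and 2 against glycerol, both of them higher, where 15.5% of all features were higher and 13.9% lower than on glucose and 14.6% higher than on glycerol. Next to MEA1, TRIRE2_73604 was 1.04 higher in log2 on lactose than on glucose (adjusted p = 0.000218), which fell to 0.96 without lactose replicate 2 and 0.94 without glucose replicate 1, and differed from glycerol by 0.16 (adjusted p = 0.354). The next gene, TRIRE2_54352, of unknown function, had log2 signals of 10.96 and 10.76 on lactose, 5.82 and 5.74 on glucose and 9.21 and 9.58 on glycerol. It rose by 5.09 ± 0.15 against glucose and by 1.47 ± 0.15 against glycerol (adjusted p = 2.57e-08 and 5.39e-05), in the direction opposite to MEA1. Near TRIRE2_82095, the GH36 α-galactosidase gene TRIRE2_124016, whose enzyme class removes galactose side chains, lay 2 genes away. It rose by 3.67 against glucose and 2.53 against glycerol (adjusted p = 8.77e-07 and 1.1e-05), with 10.75 and 10.92 on lactose, 6.98 and 7.36 on glucose and 8.57 and 8.05 on glycerol. On the other side of that transporter gene, TRIRE2_69757 fell by 1.00 against glucose (adjusted p = 8.15e-05), at the 2-fold threshold itself, and its call ended without lactose replicate 1 (-0.93) or glucose replicate 1 (-0.99). Beside TRIRE2_82204, TRIRE2_70084 differed by -0.06 from glucose and -0.05 from glycerol (adjusted p = 0.779 and 0.840). The next gene, TRIRE2_43161, differed by -0.95 from glucose on lactose, under 2-fold, and passed the threshold after a further quantile normalization (-1.13) or without lactose replicate 1 (-1.01). Between glucose and glycerol, 1 of the 10 neighbouring genes was called higher on glucose and 2 were called lower, where 8.49% of all features were higher and 9.07% lower. The higher gene was TRIRE2_43161 (1.24 ± 0.14, adjusted p = 0.000164), with 9.54 and 9.48 on glucose and 8.09 and 8.45 on glycerol, the same direction as TRIRE2_82204. The lower genes were TRIRE2_54352 (-3.61 ± 0.15, adjusted p = 4.32e-07) and TRIRE2_124016 (-1.14 ± 0.20, adjusted p = 0.00183), and the call of TRIRE2_124016 ended without glucose replicate 1 (-0.95) or glycerol replicate 1 (-0.88).

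**Figure D4:**
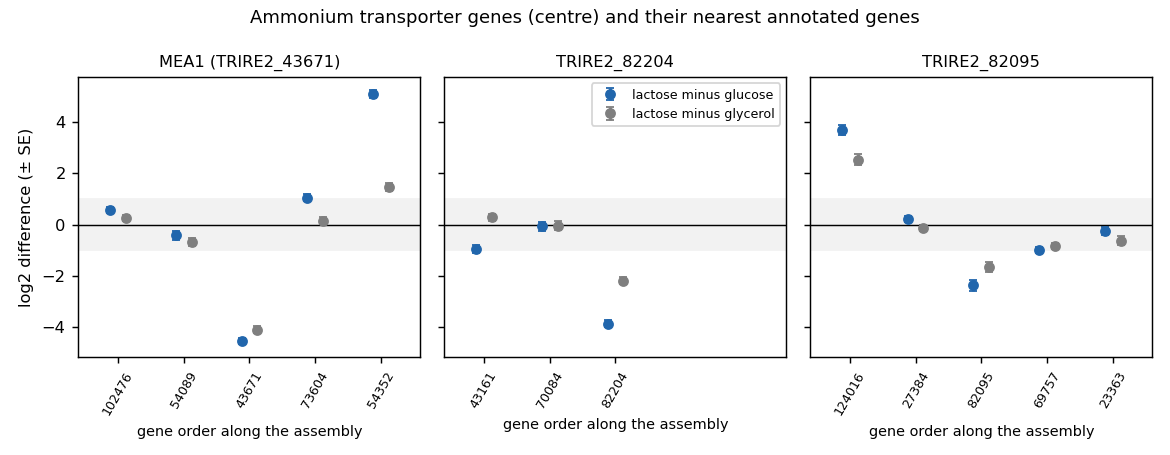
Log2 difference (± SE of the fit) of lactose minus glucose and lactose minus glycerol for each ammonium transporter gene (centre) and its nearest annotated genes in their order along the assembly, with the range under 2-fold in grey. The transporter genes are the lowest point of each panel, from -1.65 to -4.52, and TRIRE2_54352 (5.09) and TRIRE2_124016 (3.67) lie on the opposite side.

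Among genes that assimilate ammonium, 1 feature could be found by its RefSeq symbol, glt1 (TRIRE2_122287), in S. cerevisiae the symbol of glutamate synthase. Its log2 signals were 11.88 and 11.78 on lactose, 12.66 and 12.81 on glucose and 12.11 and 12.11 on glycerol. It differed by -0.91 ± 0.12 from glucose (adjusted p = 0.000180), under 2-fold, and by -0.28 ± 0.12 from glycerol (adjusted p = 0.0643). Its glucose arrays were the highest and its glycerol arrays lay between, the order of the transporter genes on a smaller scale. This order was found for 13.4% of all features, and glt1 was called in no comparison. The gene asn1 (TRIRE2_79037), in S. cerevisiae the symbol of an asparagine synthetase, chosen after its values were seen, had 11.70 and 11.47 on lactose, 13.07 and 12.94 on glucose and 12.27 and 12.46 on glycerol. It differed by -1.42 from glucose and by -0.78 from glycerol, given as a description. The symbol arg2 (TRIRE2_122226), in Neurospora crassa that of the carbamoyl phosphate synthetase subunit of arginine synthesis, also chosen afterwards, differed by -0.28 from glucose and 0.21 from glycerol.

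The study's gene list also holds 9 genes annotated as permeases or transporters of other nitrogen sources, namely allantoate, GABA or peptides. Against both glucose and glycerol, 7 of them rose on lactose and 2 fell, and over all features 10.2% were higher and 7.28% lower. The study chose these genes for a change on the same arrays, so the counts are not independent evidence of a direction, and 899 of the 1540 genes of its list (58.4%) were higher. Median differences of the 9 genes were 1.95 against glucose and 1.86 against glycerol. A GABA permease (TRIRE2_70098) had 11.11 and 11.10 on lactose, 4.20 and 3.86 on glucose and 6.50 and 7.14 on glycerol, with glucose at the low end of the arrays. It was highest on lactose and lowest on glucose. An oligopeptide transporter (TRIRE2_46794) was 2.08 and 3.67 higher in log2 than on glucose and glycerol, and an allantoate permease (TRIRE2_70860) 1.98 and 1.86 higher. The lower genes were both annotated as peptide transporters. TRIRE2_80879 had 8.58 and 8.03 on lactose, 14.57 and 14.75 on glucose and 13.75 and 13.88 on glycerol, a pattern with the same order as that of MEA1. TRIRE2_80086 fell by 3.96 against glucose and 1.04 against glycerol, and the call against glycerol ended without lactose replicate 2 (-0.67) or glycerol replicate 2 (-0.93).

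Keywords searched in the annotations were amidase, formamidase, deaminase, asparaginase, glutaminase, arginase, glutamate dehydrogenase, urease and amidohydrolase. With annotations that name porphobilinogen left out, they gave 20 listed genes, grouped here as release of ammonium. The keywords also took in an arginase family protein (TRIRE2_55179), an amidohydrolase (TRIRE2_110757) and the urease accessory gene UreF. Whether each product releases ammonium was not tested. Of these 20 genes, 17 rose and 3 fell on lactose against both other carbon sources, a choice made on these arrays as above. Their medians were 1.79 against glucose and 1.79 against glycerol. An ACC deaminase (TRIRE2_5107), which cleaves aminocyclopropane carboxylate to ammonium and a keto acid, had 12.75 and 13.08 on lactose, 8.31 and 8.81 on glucose and 6.16 and 6.20 on glycerol. An amidohydrolase related to imidazole propionase (TRIRE2_110757) had 9.17 and 9.26 on lactose, 5.12 and 5.11 on glucose and 4.17 and 4.50 on glycerol, where it was at the low end. The amidase TRIRE2_70375 was 3.51 and 2.30 higher and the formamidase TRIRE2_81511 2.28 and 3.32 higher in log2 than on glucose and glycerol. The NAD-dependent glutamate dehydrogenase gene (TRIRE2_120943), named after its values were seen, whose enzyme class releases ammonium from glutamate, was 1.83 higher than on glucose and 1.17 higher than on glycerol in log2, a description of values that the choice used. The 3 lower genes, TRIRE2_109378, TRIRE2_69863 and TRIRE2_78072, were all annotated as amidases, with differences of -1.79, -1.42 and -1.23 from glucose and -1.46, -1.30 and -1.15 from glycerol. Without glycerol replicate 2, the difference of TRIRE2_78072 from glycerol was -0.94, and without glucose replicate 1 that of the urease accessory gene UreF (TRIRE2_3462) from glucose was 0.98, which ended both calls. Among the transporters, the call of the oligopeptide transporter TRIRE2_109487 against glycerol ended without glycerol replicate 1 (0.98). The 3 ammonium transporter genes lay on the lower side of lactose. Of these 29 other nitrogen genes, 5 lay on the lower and 24 on the higher side. Both sets come from a list chosen for a change on these arrays, and a contrast between them was not tested. In that list 58.4% of genes were higher, and over all features 10.2% were higher and 7.28% lower. Amino acid permeases other than those for GABA were not searched for.

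**Figure D5:**
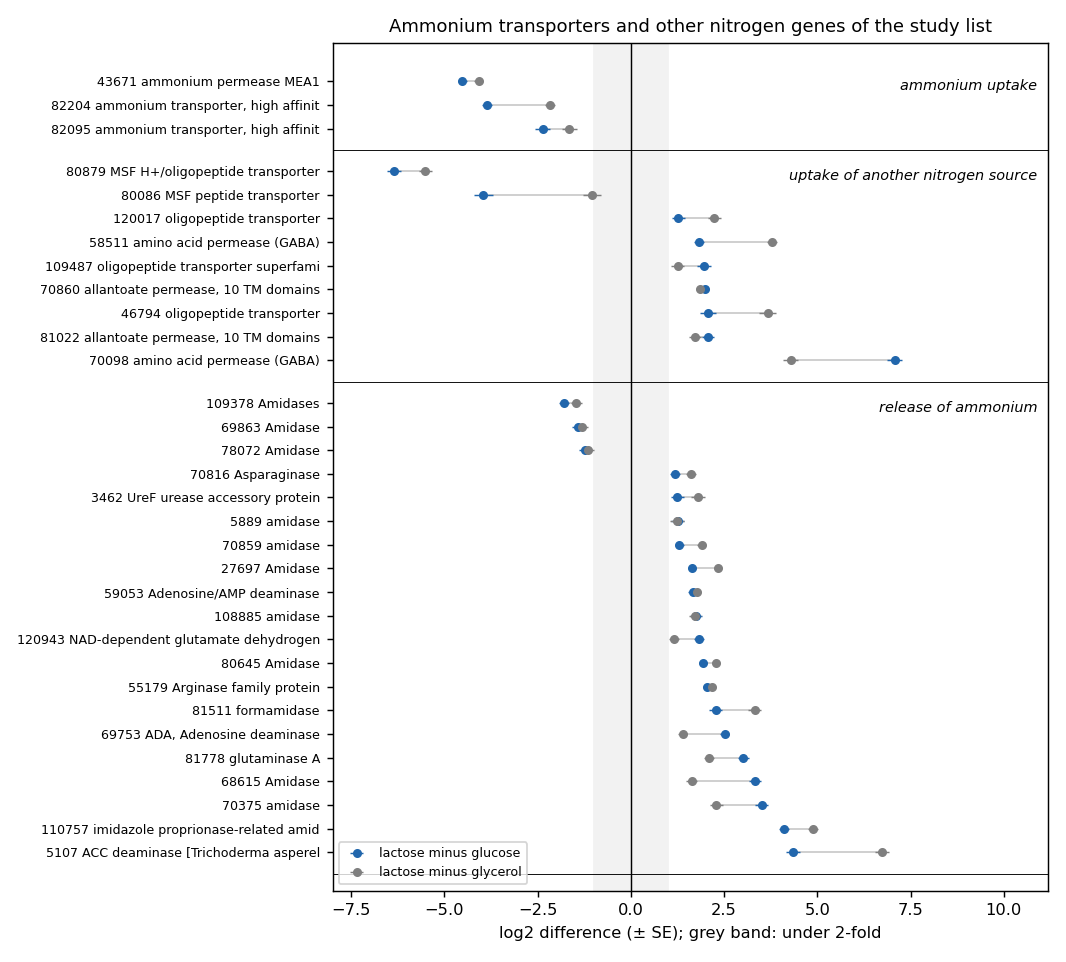
Log2 difference (± SE of the fit) of lactose minus glucose and of lactose minus glycerol, with the range under 2-fold in grey. The 3 ammonium transporter genes are at the top. Below are 29 other genes of the study's list. Their annotations matched keywords for uptake of another nitrogen source (9) or release of ammonium (20). The ammonium transporter genes lie at -1.65 or lower, and 24 of the 29 other genes lie on the higher side. Both sets come from a list chosen for a change on these arrays.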

How the data were processed

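Values of all 6 arrays are log2 signals per gene as deposited by the authors, after summary of the probes by RMA (version not stated). How the arrays were background-corrected and scaled to each other is not stated. A second deposited table, with the authors' means, SDs, folds, p-values and F values, was not used, and 0 columns with values of single arrays were left out. No filter or transformation was applied. One linear model with the 3 carbon sources was fitted to the log2 values in limma 3.58.1 (R 4.3.3) with default eBayes (prior SD 0.135, prior degrees of freedom 5.10, residual degrees of freedom 3). Adjustment by Benjamini-Hochberg covered all 9126 features. Calls required a change over 2-fold and an adjusted p under 0.05. The fold threshold is that of the study, whose methods give p without naming an adjustment. The precision is limited by 2 arrays per group, which were taken from the sample labels, and p-values measure only the spread between these arrays. The fit was tested on simulated data.

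The members and the lists were chosen with earlier results of these data known. Genes named are the 3 members, features with RefSeq symbols for ammonium or nitrate assimilation and its regulators, genes of the study's list with a nitrogen role, for which up to 4 per role with the largest smaller fold were named first, the 5 closest patterns and the 2 nearest genes on each side. A planned search for further proteins of the family was not run, since protein sequences were not used here. Of the features, 9094 matched a locus tag of the RefSeq annotation v2.0 of QM6a and 235 a symbol. The order of genes was read from that annotation. Alternatives were trend and robust options, separate fits, the replicate number as a block, a further quantile normalization, the removal of dim genes, other fold thresholds and each array left out. Python 3.11.15 with numpy 2.4.6, pandas 2.3.3 and matplotlib 3.10.9 was used for counts and figures.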

Additional observations from a re-analysis of the deposited data

How the results depend on the processing

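The direction of the lactose differences was fixed by the choice of the genes, and trend options, separate fits and a block leave the log2 differences unchanged, so these say nothing on the stability of a direction. For glucose minus glycerol, leaving out single arrays gave log2 differences of 0.41 to 0.47 for MEA1 (TRIRE2_43671, adjusted p 0.0258 to 0.110), 1.57 to 1.77 for TRIRE2_82204 and 0.48 to 0.97 for TRIRE2_82095 (adjusted p 0.0127 to 0.160), and a separate fit of both groups gave 0.72 for TRIRE2_82095 with an adjusted p of 0.0569. For lactose minus glucose the same ranges were -4.65 to -4.39, -3.97 to -3.73 and -2.61 to -2.12, and for lactose minus glycerol -4.21 to -3.95, -2.30 to -2.06 and -1.89 to -1.40. The replicate number as a block gave adjusted p of 0.0353, 3.01e-05 and 0.0308 for glucose minus glycerol of MEA1, TRIRE2_82204 and TRIRE2_82095 and changed no call of the 3 genes. Array deviations from the group means correlated weakly between same-numbered arrays, with r = -0.011 between the lactose and glucose arrays. The value was 0.075 between those on glucose and on glycerol, and -0.139 when lactose was set against glycerol. With 2 arrays per group, these correlations cannot show whether same-numbered arrays share a batch. Crossing the lactose numbers, chosen after the data were seen, left 2476 calls against glycerol, the count also found with the given numbers and without a block.

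Counts over all features depended on the thresholds. Without a fold threshold 5743 genes were called on lactose against glucose, 5456 on lactose against glycerol and 3899 on glucose against glycerol. Over 4-fold the counts were 1096, 917 and 546, and with the 2-fold rule 2681, 2476 and 1603 in the same order, with ranges of 2636 to 2774, 2468 to 2538 and 1598 to 1646 when single arrays were left out. Without the dimmest 25% of genes 1590 were called for lactose against glycerol and 1032 for glucose against glycerol. TRIRE2_82095 is among these dim genes and has no value there. Among peptide, GABA and allantoate transporters, 1 to 2 genes were lower on lactose, and of the 10 neighbouring genes 2 to 4 were called against glucose, when single arrays were left out. Signals near the low end, as for TRIRE2_82095 on lactose, limit the precision of the folds.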
